A study of Mus musculus with 32 samples.

Results

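The effect of D-45113 on the hippocampus of WT mice, which form no amyloid plaques, was examined in 16 of the 32 libraries of the study, those titled as WT hippocampus with D45113 or with vehicle. D-45113 is a hydroxyl dendrimer (HD), a branched nanoparticle that activated microglia take up, conjugated to an inhibitor of the receptor tyrosine kinase CSF1R. The WT/D-45113 group comprised 8 C57BL/6J mice (4 females and 4 males) aged 11 months at the start of IP injections of 200 mg/kg, given 2 times a week over 4 weeks. The WT/Veh group comprised 8 C57BL/6J mice of the same age and sexes that received HD, so that both groups carried the dendrimer and differed in the conjugated inhibitor. All mice were 12 months old and perfused before the hippocampus was dissected, and each library came from a separate mouse. Neither group carried a transgene. The other 16 libraries were from 5xFAD mice, which carry human familial AD transgenes driven by Thy1 sequences. They formed the groups 5xFAD/D-45113 and 5xFAD/Veh, with 4 females and 4 males in each. Their age, dose and schedule were those of the matching WT groups.

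Microglia, the resident macrophages of the brain, depend on CSF1R and its ligands CSF1 and IL-34 for survival. The acute-phase response is a separate programme, in which cytokines such as IL-6 act through the transcription factors STAT3 and C/EBP on genes of secreted proteins, among them Lcn2, Lrg1, Serpina3n and Timp1. In the brain these genes are known from endothelial cells, reactive astrocytes and infiltrating neutrophils.

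Total counts ranged from 14932699 to 21047277 in WT/D-45113 mice and from 15444249 to 27921743 in WT/Veh mice (2-sided exact permutation test over mice, p = 0.0985). Levels of Xist and Ddx3y matched the labelled sex in 16 of 16 libraries. The dentate gyrus marker Prox1 was present in every mouse (30.2 to 163 CPM in WT/D-45113, 33.0 to 119.5 CPM in WT/Veh). CPM (a gene's share of the library's counts, scaled by TMM) is the unit of all levels. Genes of neighbouring tissue were present as well and varied widely. The choroid plexus gene Ttr had 24.5 to 3944 CPM in WT/D-45113 and 25.1 to 2691 CPM in WT/Veh mice, and the striatal gene Drd2 had 16.01 to 137 CPM in WT/D-45113 and 77.6 to 385.8 CPM in WT/Veh mice. A pair of WT/D-45113 mice stood apart. Mouse 2F had the lowest levels of microglial genes and the highest of neutrophil genes, and mouse 3M the lowest levels of striatal genes and the highest of macrophage genes. In these bulk samples fewer cells of a type and less RNA per cell cannot be told apart.

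D-45113 raised the expression of 3 genes, Lcn2, Lrg1 and Cebpd, and lowered that of 1 gene, Amz1, among 16723 genes tested (edgeR's quasi-likelihood test, adjusted p under 0.05, 0.0239% of genes). The 3 genes that rose belong to the acute-phase response. DESeq2 called 26 genes and limma voom 0, so the number of calls depended on the test. Of the genes described in what follows, DESeq2 called also Ch25h, Timp1, S100a8, S100a9, Chil3, F13a1, Cybb, Cd109, Acer2, Tmem252, Cyp26b1, Rarg, Pthlh, Lmo2, Ivns1abp, Rgs20, Gm45552 and Mvd. At an unadjusted p under 0.05, 514 genes (3.07%) were higher and 625 (3.74%) were lower. A positive log2 fold change (log2FC) means a higher level in WT/D-45113, and 49.5% of all genes tested had one.

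The promoters of these genes and of further genes with the smallest p are shown because the acute-phase genes are known targets of STAT3 and C/EBP factors. Each is the window from 250 bases before to 50 bases after the gene's RefSeq start in GRCm38.p6. It is read 5′ to 3′ on the gene's strand, with capitals for a match to a searched motif. For Lcn2 and Lrg1 that start lies inside the gene position given below, which was deposited with the counts.
Lcn2, chr2:32387690-32387989, minus strand: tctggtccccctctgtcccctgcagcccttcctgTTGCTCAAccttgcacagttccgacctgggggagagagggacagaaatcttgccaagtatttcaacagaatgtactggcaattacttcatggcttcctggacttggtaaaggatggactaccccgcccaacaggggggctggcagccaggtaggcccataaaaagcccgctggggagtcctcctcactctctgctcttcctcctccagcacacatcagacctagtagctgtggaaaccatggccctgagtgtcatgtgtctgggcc
Lrg1, chr17:56121897-56122196, minus strand: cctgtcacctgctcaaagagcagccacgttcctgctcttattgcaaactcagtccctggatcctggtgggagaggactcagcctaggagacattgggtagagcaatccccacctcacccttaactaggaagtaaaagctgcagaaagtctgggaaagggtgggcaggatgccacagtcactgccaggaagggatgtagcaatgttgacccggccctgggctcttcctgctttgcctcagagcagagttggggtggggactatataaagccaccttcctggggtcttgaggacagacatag
Amz1, chr5:140723877-140724176, plus strand: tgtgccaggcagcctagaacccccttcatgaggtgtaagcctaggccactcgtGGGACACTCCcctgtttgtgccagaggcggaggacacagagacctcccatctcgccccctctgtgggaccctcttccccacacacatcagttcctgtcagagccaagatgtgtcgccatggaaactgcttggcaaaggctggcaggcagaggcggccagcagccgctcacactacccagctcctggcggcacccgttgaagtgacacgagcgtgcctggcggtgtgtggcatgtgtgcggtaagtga
The next pair of sequences are 60-base stretches of the windows of Ch25h and S100a9 around their match.
Ch25h, chr19:34475227-34475286, minus strand: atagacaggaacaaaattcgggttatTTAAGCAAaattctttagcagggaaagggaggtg
S100a9, chr3:90695912-90695971, minus strand: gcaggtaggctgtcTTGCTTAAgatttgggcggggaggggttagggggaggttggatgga
The motifs, searched on both strands, were TTCNNNGAA (STAT), TTGCNNAA (C/EBP), the NF-kappaB motif and the glucocorticoid response element (GRE), and no printed match overlaps another. The capitals in Lcn2, Ch25h and S100a9 are C/EBP matches and those in Amz1 an NF-kappaB match. The Lrg1 window held none of the 4 motifs. Of the 15 genes with the smallest p and a positive log2FC, 12 had a window, and 3 of these held a C/EBP match (25.0%, against 10.8% of all 27025 windows). A STAT match was in 1 of the 12, that of Chil3 (8.33%, against 8.47% of all windows) and an NF-kappaB match in 2 of 12 (16.7%, against 4.35%). Among the 15 genes with the smallest p and a negative log2FC, 10 had a window, with a C/EBP match in 1 and an NF-kappaB match in 2. A GRE match was in 0 of the 12 and 0 of the 10 windows (against 0.463% of all windows). These matches describe the letters of the windows only.

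Lcn2 encodes lipocalin 2, a secreted protein that binds bacterial iron carriers. Its mm10 position is chromosome 2, 32384633 to 32388252. It ranged from 0.27 to 11 CPM in WT/D-45113 mice (median 3.03) and from 0 to 0.34 CPM in WT/Veh mice (median 0.13). In raw reads this is 560 counts over the 8 WT/D-45113 mice, against 27 counts over the 8 WT/Veh mice. The groups overlapped through a single mouse, WT/D-45113 3M, which had the lowest level of its group. The log2FC was 4.55 (SE 0.602, edgeR adjusted p = 0.000168).
Lrg1, a secreted leucine-rich glycoprotein of the acute-phase response that acts on vessels, lies on chromosome 17 from 56119678 to 56122001. It had 15.5, 15.2, 13.8 and 6.47 CPM in WT/D-45113 females, 2.31, 3.09, 0.34 and 3.42 CPM in WT/D-45113 males, and 0.20 to 1.06 CPM in WT/Veh mice (median 0.332). Every female with D-45113 was above every male with D-45113, and mouse 3M was again the one within the range of the vehicle mice. The log2FC was 4.01 (SE 0.626, edgeR adjusted p = 0.00272).
Cebpd encodes C/EBP delta, which regulates acute-phase genes, on chromosome 16 from 15887286 to 15891031. It had 11.4 to 24.5 CPM in WT/D-45113 mice (median 17.3) and 5.56 to 12.5 CPM in WT/Veh mice (median 7.92). The overlap came from WT/D-45113 mice 1F and 1M and from WT/Veh mice 1F and 4M. The log2FC was 1.05 (SE 0.203, edgeR adjusted p = 0.0443).
Amz1, an archaemetzincin metallopeptidase gene on chromosome 5 from 140724127 to 140761439, had 7.02 to 14.1 CPM in WT/D-45113 mice (median 12.7) and 14.3 to 28.4 CPM in WT/Veh mice (median 23.1). All 8 mice with D-45113 were below all 8 vehicle mice, although the highest of the one group and the lowest of the other were close. The log2FC was -0.99 (SE 0.188, edgeR adjusted p = 0.0443). With the score of striatum and midbrain markers as a covariate the log2FC was -0.65 for Amz1 (adjusted p = 0.134) and 0.85 for Cebpd (adjusted p = 0.116), and the 3 genes called were Lcn2, Lrg1 and the ceramidase gene Acer2. With sex as a covariate Cebpd had an adjusted p of 0.0604 and the other 3 genes were called. Amz1 was called in 4 and Cebpd in 5 of the 16 fits that left out 1 mouse, with adjusted p-values from 0.0128 to 0.112 for Amz1 and from 0.0128 to 0.144 for Cebpd. Lcn2 and Lrg1 were called in all 16 of them. A fit of the 16 WT libraries alone gave 0 calls with its own filter, which did not keep Lcn2 and in which Lrg1 had an adjusted p of 0.0587. With the genes kept by the filter over all 32 libraries it called 2, Lcn2 and Lrg1.

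**Figure D1:**
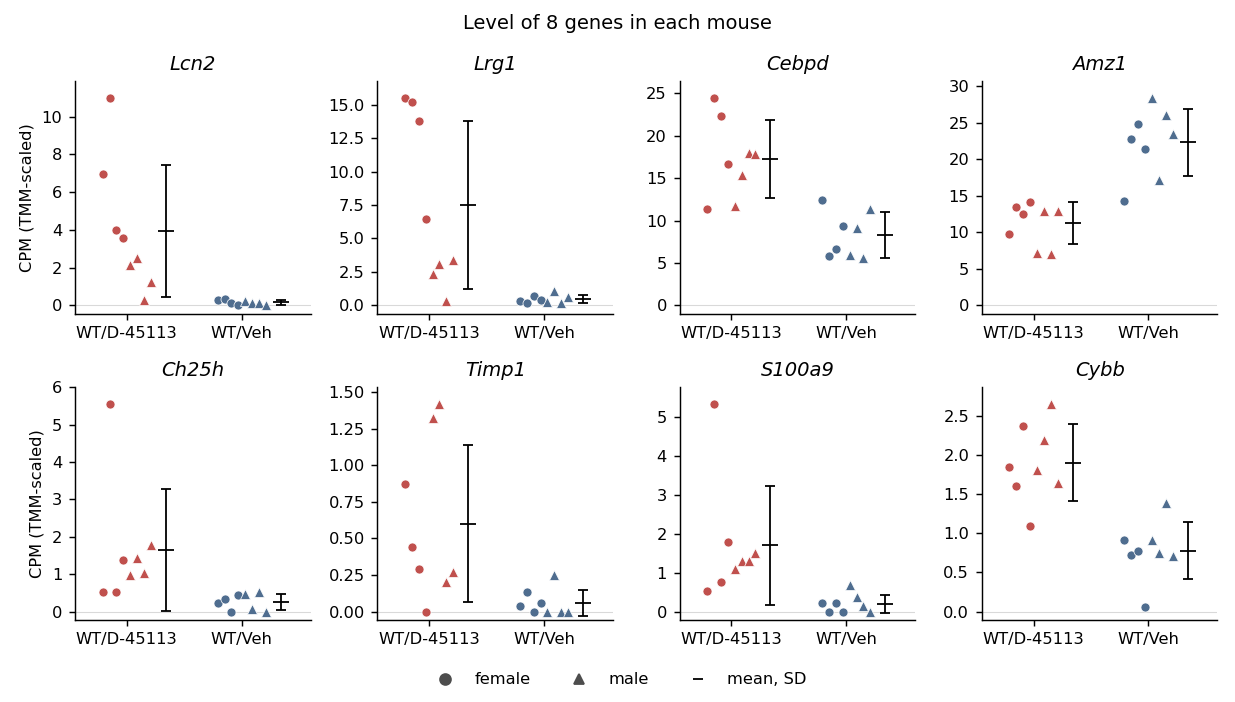
Levels of 8 genes in each WT mouse, in CPM on a linear axis, with WT/D-45113 on the left of each panel and WT/Veh on the right. Circles are females, triangles are males, and the bar and whiskers are the mean and SD of 8 mice. Lcn2 and Lrg1 reach 11 and 15.5 CPM with D-45113 and stay at or below 0.34 and 1.06 CPM with vehicle.

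**Figure D2:**
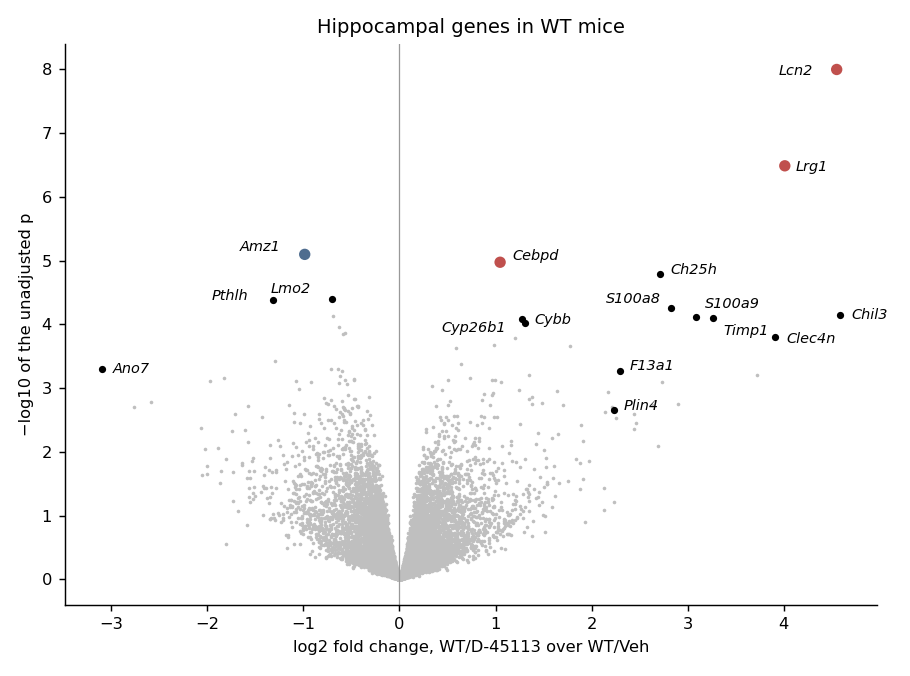
Each point is 1 of the 16723 genes tested in WT/D-45113 against WT/Veh, with the log2FC on the horizontal axis and the negative log10 of the unadjusted p on the vertical axis. The 4 genes called at an adjusted p of 0.05 are marked, with Lcn2 and Lrg1 at the upper right (log2FC 4.55 and 4.01) and Amz1 on the left (log2FC -0.99).

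Further acute-phase genes had positive log2FC values without passing the adjusted threshold of edgeR's quasi-likelihood test. Of 31 genes of the acute-phase and IL-6/STAT3 response, 22 passed the filter on low counts, 20 had a positive log2FC, 12 were higher at an unadjusted p under 0.05 (against 3.07% of all genes), and 3 were called. DESeq2 and edgeR's likelihood ratio test both called 5 of the 22, the additional genes being Ch25h (adjusted p = 0.000203 and 0.000503) and Timp1 (adjusted p = 0.0065 and 0.00262). Over all 16723 genes tested, these tests called 26 and 29. The median log2FC was 0.54, against -0.00211 over all genes tested. The list was chosen with results of these mice known, so its counts are a description. Without WT/D-45113 mice 2F and 3M, 9 of the 22 were higher at an unadjusted p under 0.05 and the median was 0.36. With the filter applied to the 16 WT libraries alone, 19 were tested, 17 were positive and 9 were higher at that p. Their median was 0.50, and 0 genes were called in that fit.
Ch25h, which makes 25-hydroxycholesterol in activated macrophages, had 0.52 to 5.56 CPM in WT/D-45113 and 0 to 0.53 CPM in WT/Veh mice. Its values overlapped only at the lower end of the mice with D-45113, and mouse 2F was far above the rest. The log2FC was 2.71 (SE 0.539, edgeR adjusted p = 0.0533).
Timp1, an inhibitor of matrix metalloproteinases, had 0 to 1.42 CPM in WT/D-45113 and 0 to 0.25 CPM in WT/Veh mice (log2FC 3.26, SE 0.729, edgeR adjusted p = 0.0973). These are few reads, 81 counts in all with D-45113 and 9 with vehicle. Serpina3n, a serine protease inhibitor of reactive astrocytes, had 31.4 to 68.1 CPM in WT/D-45113 and 11.6 to 41.6 CPM in WT/Veh mice, of which mouse 1F alone reached into the range with D-45113 (log2FC 0.98, SE 0.275, edgeR adjusted p = 0.358). Of the serum amyloid gene Saa3, which did not pass the filter, 30 counts were found in 2 WT/D-45113 mice and 0 counts in WT/Veh mice.
A score per mouse was formed for each list as the mean log2 CPM of its tested genes, centred on the 16 WT mice. The acute-phase score ranged from 0.07 to 1.02 in WT/D-45113 and from -0.60 to -0.19 in WT/Veh mice. The 2 groups of scores did not overlap, and mouse 2F was the highest and mouse 3M the lowest with D-45113. Since the list holds the called genes Lcn2, Lrg1 and Cebpd, this separation in part restates those calls. The scores of the neutrophil and monocyte lists did not overlap either. Some of their tested genes did not pass the filter of the WT libraries alone, so this separation is in part built in. The summed levels of all genes of either list overlapped between the groups.

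**Figure D3:**
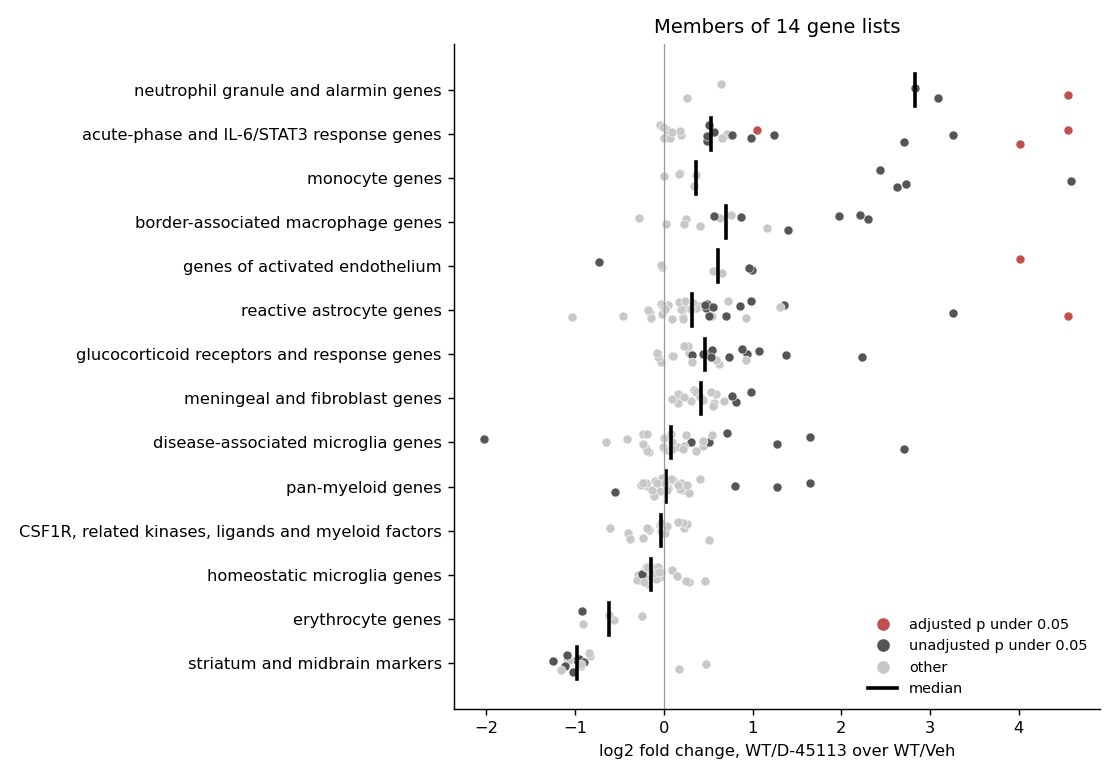
Log2FC of the tested genes of 14 gene lists in WT/D-45113 against WT/Veh, 1 point per gene, with a line at the median of each list. Neutrophil genes have the highest median (2.83 over 5 genes, and 0.65 over the 3 that pass the filter in the WT libraries alone) and the striatum and midbrain markers the lowest (-0.98), while lists of microglia lie close to 0.

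The neutrophil genes that passed the filter had positive log2FC values at low levels. Of 13 neutrophil genes 5 passed the filter, and all 5 had a positive log2FC (against 49.5% of all genes). At an unadjusted p under 0.05, 3 were higher (against 3.07%), and 1 (Lcn2, also an acute-phase gene) was called (against 0.0239%). Genes this rare in vehicle mice can pass only through groups in which they are higher, and with the filter applied to the 16 WT libraries alone 3 were tested and 2 were higher at that p, with a median of 0.65 in place of 2.83. The alarmin S100a8 had 0.32 to 4.72 CPM in WT/D-45113 and 0 to 0.46 CPM in WT/Veh mice (log2FC 2.83, SE 0.614, edgeR adjusted p = 0.0973). Its partner S100a9, with which it forms calprotectin, had 0.52 to 5.33 CPM in WT/D-45113 and 0 to 0.67 CPM in WT/Veh mice (log2FC 3.09, SE 0.688, edgeR adjusted p = 0.0973). Both were highest in mouse 2F, and in either gene 2 mice with D-45113 at most lay within the vehicle range.
The neutrophil genes that did not pass the filter did not all follow. Over 8 mice each, the chemokine receptor Cxcr2 had 41 counts in WT/D-45113 and 6 in WT/Veh, and Retnlg 118 and 14. In the same order Mmp8 had 38 and 9, Ngp 46 and 21, and Camp 9 and 5. The granule genes Mpo and Ltf had 14 and 3 counts in WT/D-45113 and 11 and 41 counts in WT/Veh mice, and the elastase gene Elane had 0 counts in both groups. The summed level of the 13 genes ranged from 9.51 to 34.6 CPM in WT/D-45113 and from 3.69 to 10.7 CPM in WT/Veh mice, and it was highest in mouse 2F.
Erythrocyte genes, which mark blood left in vessels, had negative values. Of 7, 5 passed the filter and 0 of these had a positive log2FC, with a median of -0.61, and their summed level was 60.3 to 359 CPM in WT/D-45113 and 134 to 436 CPM in WT/Veh mice. The haemoglobin gene Hba-a1 had a log2FC of -0.92 (SE 0.416, edgeR adjusted p = 0.689). The part of neutrophils within vessels in these values was not tested.
Of 14 monocyte genes 9 passed the filter, and 4 of these were higher at an unadjusted p under 0.05. These 4 were Chil3, Ccr2, Plac8 and Ly6c2, with 10, 13, 18 and 12 counts in all 8 WT/Veh mice, too few to pass the filter there, so their number does not speak for the list. With the filter applied to the 16 WT libraries alone, 5 monocyte genes were tested and 0 were higher at that p by edgeR, with a median log2FC of 0.19. Abundant members such as Ace, S100a6 and Cd44 had log2FC values of 0.19, 0.00016 and 0.17 (edgeR adjusted p = 0.987 or more). Chil3, a chitinase-like secreted protein of monocytes and neutrophils, had 0.34 to 7 CPM in WT/D-45113 mice, against 0 CPM in 6 WT/Veh mice and 0.15 and 0.38 CPM in the other two (log2FC 4.59, SE 1.01, edgeR adjusted p = 0.0973). The chemokine receptor Ccr2, which brings monocytes out of the marrow, had 0.14 to 1.09 CPM in WT/D-45113 and 0 to 0.26 CPM in WT/Veh mice (log2FC 2.62, SE 0.776, edgeR adjusted p = 0.378). Plac8 had a log2FC of 2.73 (SE 0.743, edgeR adjusted p = 0.291) and Ly6c2, of the Ly6C antigen of classical monocytes, of 2.44 (SE 0.799, edgeR adjusted p = 0.459). In the summed level of the 14 genes, which the most abundant ones set, the groups overlapped (50.7 to 185 CPM in WT/D-45113, 38.8 to 155 CPM in WT/Veh).
Cybb, the catalytic subunit of the phagocyte NADPH oxidase, had 1.09 to 2.66 CPM in WT/D-45113 and 0.06 to 1.39 CPM in WT/Veh mice (log2FC 1.28, SE 0.286, edgeR adjusted p = 0.0973). Only WT/D-45113 mouse 4F lay within the vehicle range. Cd22, a sialic acid-binding lectin of B cells and microglia, was the 1 gene of those tested (0.00598%) in which all 8 WT/D-45113 mice (0.40 to 0.87 CPM) were above all 8 WT/Veh mice (0 to 0.38 CPM). Cd22 was singled out after its values were seen (log2FC 1.35, SE 0.392, edgeR adjusted p = 0.378).

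Border-associated macrophages line the meninges and vessels. Of 14 tested genes of these cells, 13 had a positive log2FC (against 49.5% of all genes). At an unadjusted p under 0.05, 6 were higher (against 3.07% of all genes), and the median was 0.70. WT/D-45113 mouse 3M was far above the rest in several of them. The clotting factor gene F13a1 had 22 CPM in WT/D-45113 mouse 3M and 0.58 to 5.25 CPM in the other WT/D-45113 mice, against 0 to 2.63 CPM in WT/Veh mice (log2FC 2.30, SE 0.601, edgeR adjusted p = 0.291, and 1.28 without that mouse). Siglec1, the sialoadhesin gene, had 7.63 CPM in mouse 3M and 0.14 to 1.90 CPM in the others with D-45113, against 0.08 to 1.39 CPM in WT/Veh mice (log2FC 2.21, and 1.18 without mouse 3M).
The mannose receptor gene Mrc1 was spread more evenly, with 1.71 to 7.70 CPM in WT/D-45113 and 0.42 to 3.07 CPM in WT/Veh mice (log2FC 0.87, SE 0.333, edgeR adjusted p = 0.615). Without mice 2F and 3M, 2 of the 14 genes were higher at an unadjusted p under 0.05 and the median was 0.40. With the filter applied to the 16 WT libraries alone 8 were tested and 3 were higher at that p, with a median of 0.33. Meningeal genes went the same way, with 18 of 18 positive, 3 higher at that p and a median of 0.42. With the meninges and choroid plexus scores as covariates, 2 border-associated macrophage genes were higher at that p, with a median of 0.35. The part of dissected meninges in these values was not tested.

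**Figure D4:**
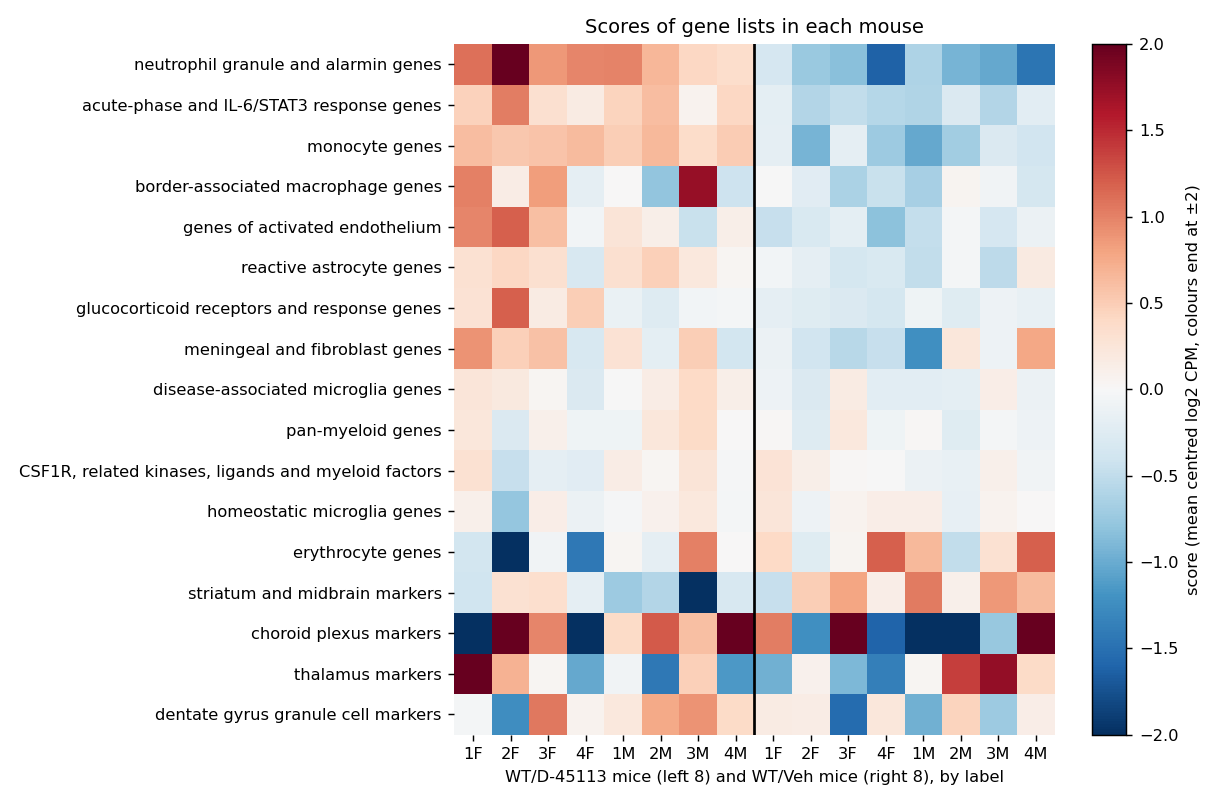
Scores of 17 gene lists (rows) in each WT mouse (columns), as mean centred log2 CPM, with the WT/D-45113 mice on the left and the WT/Veh mice on the right. The acute-phase score is above 0 in 8 of 8 mice with D-45113, mouse 2F is lowest for homeostatic microglia (-0.77), and mouse 3M is lowest for striatum and midbrain (-2).

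Microglia are the cells that D-45113 was made to reach. Of 69 tested genes in the lists of the CSF1R axis, of homeostatic and of disease-associated microglia, edgeR's quasi-likelihood test called 0 and 8 had an unadjusted p under 0.05, and limma voom called 0. With 0.0239% of all genes called by the quasi-likelihood test, a count of 0 does not set these genes apart. DESeq2 and the likelihood ratio test called 2 of them, Ch25h (adjusted p = 0.000203 and 0.000503) and Cybb (adjusted p = 0.0065 and 0.00746), against 26 and 29 of all 16723 genes tested. The target gene Csf1r had 86.9 to 173 CPM in WT/D-45113 (median 143) and 114 to 195 CPM in WT/Veh mice (median 140), and the groups covered nearly the same range. Its log2FC was -0.04 (SE 0.120, edgeR adjusted p = 0.999). The ligand genes Csf1 and Il34 had log2FC values of 0.23 (SE 0.137, edgeR adjusted p = 0.804) and 0.02 (SE 0.148, edgeR adjusted p = 0.999). Of 19 genes of CSF1R, related kinases, ligands and myeloid factors, 16 were tested, 7 had a positive log2FC, and 0 were called by edgeR. At an unadjusted p under 0.05 there were 0 of them by edgeR and 1 by DESeq2.
Of 25 genes of homeostatic microglia, 24 were tested and 5 had a positive log2FC (against 49.5% of all genes), with a median of -0.14. At an unadjusted p under 0.05, 1 was lower (against 3.74% of all genes). By edgeR or DESeq2 0 were called. Tmem119 had a log2FC of -0.20 (SE 0.173, edgeR adjusted p = 0.929). The purinergic receptor gene P2ry12 had 16.5 CPM in WT/D-45113 mouse 2F and 38.3 to 55.7 CPM in the other WT/D-45113 mice, against 42.0 to 60.3 CPM in WT/Veh mice (log2FC -0.19, SE 0.172, edgeR adjusted p = 0.932). The fractalkine receptor gene Cx3cr1 was likewise low in 2F, at 28.2 CPM, and had 59.9 to 81.1 CPM in the others with D-45113, against 59.9 to 83.4 CPM with vehicle. Csf1r and Itgam, the gene of CD11b, were lowest in the same mouse (86.9 and 3.22 CPM). Without 2F and 3M the median of the homeostatic list was -0.08.
Disease-associated microglia genes mark the cells around plaques. The protease inhibitor gene Cst7 had 0 to 0.96 CPM in WT/D-45113 and 0 to 0.73 CPM in WT/Veh mice. Itgax had a log2FC of 0.55 (SE 0.414, edgeR adjusted p = 0.888), Clec7a of 0.16 (SE 0.427, edgeR adjusted p = 0.999) and the lipid receptor gene Trem2 of -0.19 (SE 0.188, edgeR adjusted p = 0.950). Cxcl9, an interferon-induced chemokine, was at 0 counts in 7 of 8 mice with D-45113 and in 6 of 8 with vehicle. In 33 such genes 22 had a positive log2FC (against 49.5% of all genes), with a median of 0.08. At an unadjusted p under 0.05, 6 were higher and 1 lower (against 3.07% and 3.74% of all genes). Ch25h and Lyz2 were among the members with the largest values, and the chemokine gene Ccl4 had the lowest, a log2FC of -2.03 (SE 0.732, edgeR adjusted p = 0.570) from 5 counts in WT/D-45113 and 28 in WT/Veh mice.

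Genes of reactive astrocytes had mostly positive log2FC values. Of 37 reactive astrocyte genes, 36 were tested and 28 were positive, with a median of 0.32 (0.22 without mice 2F and 3M). At an unadjusted p under 0.05, 11 were higher (against 3.07% of all genes), and 1 (Lcn2) was called (against 0.0239%). Several members, among them Lcn2, Serpina3n and Timp1, are also in the acute-phase list and are counted in both. Gfap, the intermediate filament gene of astrocytes, had 274 to 660 CPM in WT/D-45113 (median 424) and 202 to 669 CPM in WT/Veh mice (median 268). The highest value of all was that of WT/Veh mouse 1F, and the log2FC was 0.47 (SE 0.218, edgeR adjusted p = 0.695). The surface protein gene Cd109 had a log2FC of 1.35 (SE 0.357, edgeR adjusted p = 0.291) and the complement C1 inhibitor gene Serping1 of 0.86 (SE 0.249, edgeR adjusted p = 0.378). Gjb6, which encodes the astrocyte gap junction protein connexin 30, had 51.2 to 115 CPM in WT/D-45113 and 39.0 to 64.1 CPM in WT/Veh mice (log2FC 0.59, SE 0.144, edgeR adjusted p = 0.172). It belongs to another list, of 18 astrocyte metabolic and coupling genes, whose median log2FC was 0.03. Of these 18, 14 were positive and Gjb6 was the 1 gene higher at an unadjusted p under 0.05.
Of 11 genes of activated endothelium, 8 were tested, 5 had a positive log2FC (against 49.5% of all genes), 3 were higher and 1 lower at an unadjusted p under 0.05, and 1 (Lrg1) was called. The median was 0.61, and it was 0.31 without mouse 2F, 1.04 in females only and 0.04 in males only. Vwf, the gene of von Willebrand factor, had 135, 74.9, 104 and 44.96 CPM in WT/D-45113 females and 39.0 to 54.4 CPM in WT/D-45113 males, against 22.6 to 51.5 CPM in WT/Veh mice (log2FC 0.96, SE 0.258, edgeR adjusted p = 0.291). WT/D-45113 mice 1F, 2F, 3F and 1M were above every vehicle mouse. The adhesion molecule gene Icam1 had a log2FC of 1.00 (SE 0.269, edgeR adjusted p = 0.291) and the vasoconstrictor gene Edn1 of -0.73 (SE 0.330, edgeR adjusted p = 0.686). The selectins of inflamed vessels did not pass the filter, with 65 and 23 counts of Sele and Selp in WT/D-45113 and 10 and 0 counts in WT/Veh mice. General endothelial and blood-brain barrier genes had a median log2FC of -0.01, with 9 of 19 positive.

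Of 24 genes of the glucocorticoid receptors and their response, 21 had a positive log2FC (against 49.5% of all genes), with a median of 0.46. At an unadjusted p under 0.05, 11 were higher (against 3.07% of all genes). By edgeR and DESeq2 0 of them were called, against 4 and 26 of all 16723 genes tested. Such a count does not set the list apart. The lipid droplet gene Plin4 had 51.0 CPM in mouse 2F and 1.87 to 14.2 CPM in the other WT/D-45113 mice, against 1.19 to 4.56 CPM in WT/Veh mice (log2FC 2.23, SE 0.668, edgeR adjusted p = 0.397, and 1.35 without that mouse). The sulfotransferase gene Sult1a1 had 51.8 CPM in 2F, 3.80 to 14.95 CPM in the others with D-45113, and 3.05 to 7.68 CPM with vehicle (log2FC 1.38, SE 0.403, edgeR adjusted p = 0.378, and 0.68 without 2F). Mouse 2F led both genes, and the other females with D-45113 followed. The score of the list was 0.16 to 1.19 in WT/D-45113 females and -0.25 to -0.04 in WT/D-45113 males, against -0.36 to -0.09 in WT/Veh mice. Without mice 2F and 3M, 5 of 24 were higher at an unadjusted p under 0.05, with a median of 0.20.
Acer2 showed a similar order, with 22.2 to 32.8 CPM in WT/D-45113 females and 11.4 to 20.3 CPM in WT/D-45113 males, against 6.63 to 15.1 CPM in WT/Veh mice (log2FC 0.98, SE 0.236, edgeR adjusted p = 0.168). Tmem252 had a log2FC of 1.20 (SE 0.284, edgeR adjusted p = 0.137).

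Sex was therefore examined as a factor within the WT mice. The interaction of sex and treatment was called for 0 of 16723 genes by edgeR (0%, smallest adjusted p = 0.0750), with 2345 genes at an unadjusted p under 0.05, 0 by limma voom, 73 by edgeR's likelihood ratio test and 148 by DESeq2. Lrg1 had a log2FC of 5.01 in females and 2.08 in males (edgeR interaction, adjusted p = 0.220), and Lcn2 one of 4.93 in females and 3.67 in males (edgeR interaction, adjusted p = 0.645). Smaller interaction p-values were found for Vwf, with 1.66 in females and 0.12 in males (adjusted p = 0.143), and for the lipoprotein lipase inhibitor gene Angptl4, with 2.22 in females and -0.56 in males (adjusted p = 0.0914). Gfap went the other way, with -0.11 in females and 1.07 in males (adjusted p = 0.203). In edgeR's quasi-likelihood test none of these differences between the sexes passed the adjusted threshold.
Fitted in females only, 4 of 17375 genes were called (0.023%), Lcn2, Lrg1, Acer2 and the prostaglandin D2 synthase gene Ptgds. In males only 40 of 16697 were called (0.24%), 15 higher and 25 lower, among them Gfap (log2FC 1.06, adjusted p = 0.0456) and Amz1 (log2FC -1.27, adjusted p = 0.0456), and 0 genes were called in both. The median log2FC of striatum and midbrain markers was -0.46 in females and -1.73 in males, and that of thalamus markers 1.61 in females and -1.30 in males, both lists being markers of tissue that borders the hippocampus. The part of such tissue in the differences between the sexes was not tested.

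Among genes with a negative log2FC, Amz1 had the smallest p and was followed by Lmo2, a transcriptional cofactor of blood and endothelial lineages, with 12.9 to 26.3 CPM in WT/D-45113 and 22.4 to 39.2 CPM in WT/Veh mice (log2FC -0.71, SE 0.150, edgeR adjusted p = 0.0872). Pthlh, which encodes the parathyroid hormone-related peptide, had 0.69 to 2.00 CPM in WT/D-45113 and 1.52 to 5.89 CPM in WT/Veh mice (log2FC -1.32, SE 0.281, edgeR adjusted p = 0.0872). Ivns1abp had a log2FC of -0.69 (SE 0.148, edgeR adjusted p = 0.0872) and Mvd, an enzyme of cholesterol synthesis, of -0.59 (SE 0.138, edgeR adjusted p = 0.130).
In 4 of the genes tested (0.0239%) all 8 WT/D-45113 mice were below all 8 WT/Veh mice. These were Amz1, the G protein regulator gene Rgs20, Hbegf of the EGF family and the gene Gm45552. Rgs20 had 12.6 to 20.9 CPM in WT/D-45113 and 22.99 to 35.3 CPM in WT/Veh mice (log2FC -0.63, SE 0.144, edgeR adjusted p = 0.116). Hbegf had 9.57 to 13.4 CPM in WT/D-45113 and 13.8 to 20.4 CPM in WT/Veh mice (log2FC -0.60, SE 0.156, edgeR adjusted p = 0.291).
Cyp26b1, which breaks down retinoic acid, was among the 15 genes with the smallest p and a positive log2FC. It had 6.78 to 22.6 CPM in WT/D-45113 and 3.05 to 9.73 CPM in WT/Veh mice, with mouse 2F as the only one with D-45113 in the vehicle range (log2FC 1.30, SE 0.294, edgeR adjusted p = 0.106). The retinoic acid receptor gene Rarg had 3.60 to 6.49 CPM in WT/D-45113 and 4.94 to 10.9 CPM in WT/Veh mice (log2FC -0.69, SE 0.153, edgeR adjusted p = 0.0973).
Markers of the striatum and midbrain had 2 of 17 positive log2FC values, 8 lower at an unadjusted p under 0.05 (against 3.74% of all genes) and a median of -0.98. Their summed level was 383 to 3220 CPM in WT/D-45113 and 1520 to 6700 CPM in WT/Veh mice, lowest in WT/D-45113 mouse 3M. With 1 mouse left out the number at that p ranged from 2 (without WT/Veh 1M) to 12 (without WT/Veh 1F), and it was 3 without WT/D-45113 3M and 4 without WT/D-45113 1M or 2M or WT/Veh 3F or 3M. The phosphodiesterase gene Pde10a had 96.2 CPM in mouse 3M and 320 to 535 CPM in the other WT/D-45113 mice, against 395 to 1235 CPM in WT/Veh mice (log2FC -0.96, SE 0.418, edgeR adjusted p = 0.666). The retinoic acid receptor gene Rarb, also of this list, had 3.20 to 20.0 CPM in WT/D-45113 and 12.5 to 39.7 CPM in WT/Veh mice (log2FC -1.11, SE 0.387, edgeR adjusted p = 0.548).
In the fit with the score of these markers as a covariate, 0 genes with a negative log2FC were called. There Lmo2 had a log2FC of -0.50 (adjusted p = 0.551), Ivns1abp of -0.43 (adjusted p = 0.781) and Rgs20 of -0.51 (adjusted p = 0.781). Pthlh had one of -1.17 (adjusted p = 0.443) and Mvd of -0.71 (adjusted p = 0.0679). Rarb had one of -0.18 (adjusted p = 0.999), but it is a member of the score, so this value is in part set by the fit. The score itself was below the mean of the vehicle mice in 8 of 8 mice with D-45113, so in this fit treatment and tissue can be told apart only in part.

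The same contrast in 5xFAD mice shares no library with that in WT mice, but the filter and the estimate of the spread were common to both. Rare genes such as Lcn2 and Chil3 did not pass the filter of the WT libraries alone and were tested only through the 5xFAD libraries. For such genes the counts that follow are a description and no support. Of the 15 WT genes with the smallest p and a positive log2FC, 10 were positive in 5xFAD/D-45113 against 5xFAD/Veh (66.7%, against 51.2% of all genes) and 7 were called there (46.7%, against 2.21%). Of the 15 with a negative log2FC, 14 were negative in 5xFAD mice (93.3%, against 48.8%) and 6 were called (40%, against 1.75%). The striatum and midbrain markers also had negative values in both contrasts, with a median log2FC of -0.98 in WT and -0.89 in 5xFAD mice. The part of such tissue in the shared negative values was not tested. Lcn2 had a log2FC of 4.55 in WT and 2.08 in 5xFAD mice (adjusted p = 0.0141 in 5xFAD, edgeR interaction, adjusted p = 0.320), and Lrg1 4.01 in WT and 3.21 in 5xFAD mice (adjusted p = 0.00341). S100a8 and Chil3 had 3.00 and 4.58 in 5xFAD mice (adjusted p = 0.00687 and 0.00709), and Amz1 had -0.87 (adjusted p = 0.00826), close to their WT values.
Other genes had no such value in 5xFAD mice. Cebpd had a log2FC of -0.22 there (edgeR interaction, adjusted p = 0.262), Ch25h -0.27 (edgeR interaction, adjusted p = 0.262), Timp1 -0.20 (edgeR interaction, adjusted p = 0.312) and Cyp26b1 -0.05 (edgeR interaction, adjusted p = 0.313). Csf1r had -0.04 in WT and -0.44 in 5xFAD mice (edgeR interaction, adjusted p = 0.451). The interaction of genotype and treatment was called for 0 of 16723 genes (0%, edgeR, smallest adjusted p = 0.112), with 1591 at an unadjusted p under 0.05, 0 by limma voom, 11 by edgeR's likelihood ratio test and 14 by DESeq2. In edgeR's quasi-likelihood test the interaction of no named gene passed the adjusted threshold.

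**Figure D5:**
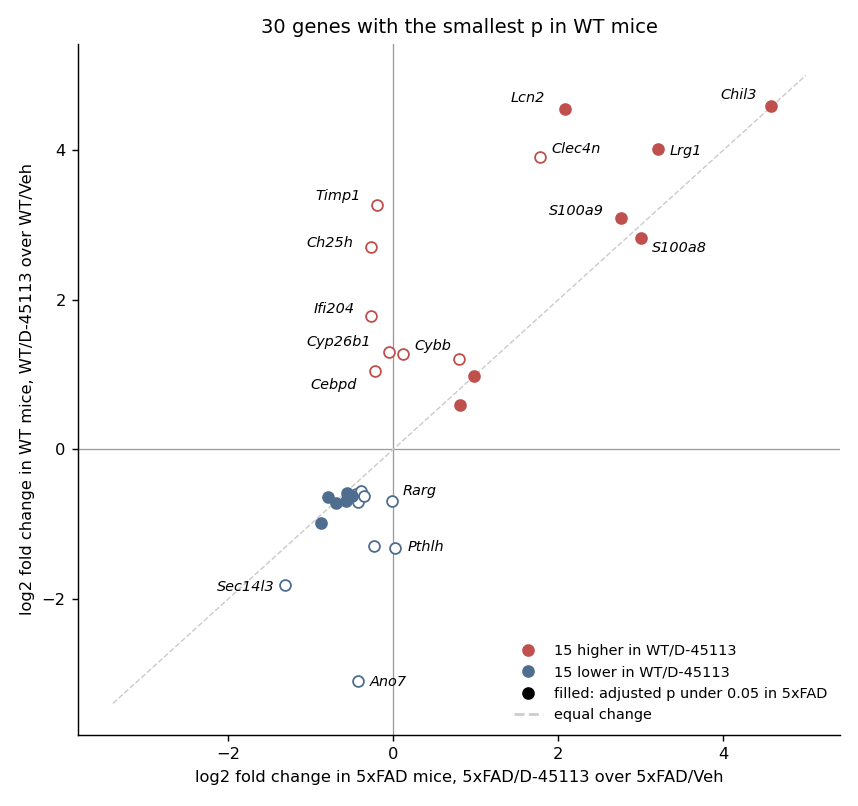
Log2FC of D-45113 against vehicle in WT mice and in 5xFAD mice for the 15 genes with the smallest p in each direction in WT mice, 30 genes in all. Lcn2, Lrg1, S100a8 and Chil3 are above 2 in both genotypes, while Cebpd, Ch25h and Timp1 are positive in WT mice and slightly negative in 5xFAD mice (-0.22, -0.27 and -0.20).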

How the data were processed

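Hippocampal RNA was sequenced and mapped for the study by Novogene (mouse build mm10 per the labels). Which aligner and counter were used is not given in the sources used here. Raw counts and FPKM of 54532 genes were deposited by the authors for each mouse. Of the deposited columns, 0 lacked a sample. The count analysis used edgeR 4.0.16 in R 4.3.3, with filterByExpr, TMM and a robust quasi-likelihood fit of 4 groups over 32 libraries. Benjamini-Hochberg adjustment ran over the 16723 genes kept, with calls at 0.05. The SE is the absolute log2FC divided by the square root of F. Sex by treatment was tested in a model that also split the groups by sex. Log2 CPM used a prior count of 2.

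The groups, the 43 gene lists and the named genes were chosen with earlier results of these data known. Named are the genes called, in each direction the 15 of smallest p and the 5 of largest change (among genes averaging 1 CPM or more), up to 4 list members by p, and 15 microglial, myeloid and astrocyte genes. Genes outside this rule are said to be so, with some exceptions. These are list members below the filter, given as raw counts, and genes called within a sex. The tissue and sex markers Prox1, Ttr, Drd2 and Ddx3y are outside it too. So are Malat1 and the monocyte list members Ace, S100a6 and Cd44.

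Alternative settings included RLE scaling, DESeq2 1.42.0, limma 3.58.1 (voom, and trend on log2 of the deposited FPKM plus 1 or 0.1), the likelihood ratio test of edgeR, other filters, covariates, single sexes, a replicate block and leaving out mice. The fit was tested on simulated data. Promoter windows came from RefSeq (GRCm38.p6). Figures were made with matplotlib 3.10.9.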

Additional observations from a re-analysis of the deposited data

Results flagged for a closer look

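Among 210 groups of 8 mice (log2 CPM of the named genes and list scores, in either group), 23 held a mouse whose gap to its nearest neighbour was past the 95% value of Dixon's gap test for 8 values. Chance alone gives about 1 in 20 such groups. WT/D-45113 mouse 2F accounted for 10 of the 23. It was lowest of its group for the microglial genes Csf1r (6.44 log2 CPM), P2ry12 (4.05), Cx3cr1 (4.82) and Itgam (1.73), for Cyp26b1 (2.78) and for the homeostatic microglia score (-0.773). It was highest for the glucocorticoid response gene Arrdc2 (5.44 log2 CPM), for the matrix protein gene Mgp (5), for the chemokine gene Ccl4 (-1.91) and for the neutrophil score (2.18).

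WT/D-45113 mouse 3M was lowest of its group for Rarb (1.72 log2 CPM), Pde10a (6.59), Syndig1l (4.32) and the score of striatum and midbrain markers (-2). WT/D-45113 mouse 3F was the only one of its group with reads of Cxcl9 (-1.59 log2 CPM). Among WT/Veh mice, 1M was lowest for Mrc1 (-0.931 log2 CPM) and highest for Sez6 (9.36) and Slco2b1 (5.01). WT/Veh mouse 4M was lowest for Tmem252 (-0.633 log2 CPM) and Cd22 (-3.32) and highest for Mgp (3.56), mouse 4F was lowest for Cybb (-2.62) and mouse 2F highest for Cxcl9 (-1.04). What set these mice apart was not tested.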

How the results depend on the processing

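The 4 calls of WT/D-45113 against WT/Veh were also 4 with RLE size factors, without a filter and at a mean of at least 1 CPM. They were 3 with sex and 3 with the striatum and midbrain score as covariate, 26 with DESeq2, 29 with the likelihood ratio test, 40 in males only, 0 with voom, 0 in the 16 WT libraries alone (2 with the genes of the 32-library filter), 0 on log2(FPKM + 1) with and without a minimum of 1 FPKM, 2 on log2(FPKM + 0.1), and 2 with choroid plexus and thalamus scores, with meninges and choroid plexus scores, or without mice 2F and 3M. Leaving out 1 mouse gave 2 to 7 calls, with 7 without WT/Veh 2M and 2 without WT/D-45113 2F, 2M, 3M or 4M or WT/Veh 2F, 3F, 4F, 1M or 3M. The genotype interaction, 0 otherwise, had 14 calls with DESeq2, 11 with the likelihood ratio test, 43 in males only, 2 with the striatum and midbrain score and 0 to 1 with 1 mouse left out (1 without WT/Veh 4F). The sex interaction had 148 with DESeq2, 73 with the likelihood ratio test, 3 without a filter, 1 with choroid plexus and thalamus scores, 1 on log2(FPKM + 1), 1 on log2(FPKM + 0.1) and 0 to 30 with 1 mouse left out (30 without WT/D-45113 4F, 5 without WT/Veh 2M, 2 without WT/D-45113 3F). With the replicate block there were 3 calls of treatment, where Cebpd had an adjusted p of 0.0511, and 1 of the sex interaction. The block is not a pairing by design, since the correlation of same-numbered mice was -0.155 to 0.282 and only 1 mouse of 8 pairs correlated best with its own number. Log2FC values of genes with no call changed sign in 47 cases. In females only Gfap was -0.11, Aif1 -0.43 and Clec7a -0.62. In males only Angptl4 was -0.58, Arrdc2 -0.24, Fmod -0.14, Il34 -0.16, Csf1r 0.049, P2ry12 0.033, Cx3cr1 0.058, Itgam 0.26, Cst7 0.99 and Trem2 0.11. With meninges and choroid plexus scores Csf1r was 0.065, Itgam 0.083 and Cst7 0.018, with choroid plexus and thalamus scores Itgam was 0.014, and with the striatum and midbrain score Aif1 was -0.026 and Clec7a -0.049. With voom Il34 was -0.0035 and Cst7 0.034, and Il34 was -0.0092 on log2(FPKM + 1), with or without the minimum, and -0.011 on log2(FPKM + 0.1). Without mice 2F and 3M, chosen after seeing the data, Il34 was -0.026, Cx3cr1 0.030, Itgam 0.0042, Cst7 0.20 and Clec7a -0.060. With 1 mouse left out Csf1r ranged from -0.088 to 0.036, Il34 from -0.071 to 0.083, Cx3cr1 from -0.13 to 0.023, Aif1 from -0.047 to 0.23, Itgam from -0.12 to 0.10, Cst7 from -0.83 to 0.23, Clec7a from -0.19 to 0.46 and Cxcl9 from -3.39 to 1.41. The causes were not tested. Of genes under 1 CPM, such as Chil3, Timp1 and Ccr2, the fold changes rest on few reads and their size depends on the prior count.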

Other observations

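Of 20 genes of haem and iron handling 18 were tested, 10 had a positive log2FC (against 49.5% of all genes), 4 were higher at an unadjusted p under 0.05 and 1 (Lcn2) was called, with a median of 0.08. The transferrin receptor gene Tfrc had 73.0 to 99.9 CPM in WT/D-45113 and 43.3 to 79.4 CPM in WT/Veh mice (log2FC 0.46, SE 0.149, edgeR adjusted p = 0.436). The divalent metal transporter gene Slc11a2 had 36.2 to 49.0 CPM in WT/D-45113 and 31.5 to 40.2 CPM in WT/Veh mice (log2FC 0.28, SE 0.0915, adjusted p = 0.459). B2m, the light chain gene of MHC class I, had a log2FC of 0.31 in WT and -0.63 in 5xFAD mice (edgeR interaction, adjusted p = 0.258). Of 26 immediate early genes 12 had a positive log2FC (against 49.5% of all genes), with a median of -0.04. At an unadjusted p under 0.05, 2 were lower (against 3.74% of all genes), and 0 were called by edgeR or DESeq2. Npas4, a neuronal activity-dependent transcription factor, had 1.02 to 6.17 CPM in WT/D-45113 and 0.50 to 17.5 CPM in WT/Veh mice (log2FC -1.05, SE 0.444, adjusted p = 0.652).

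In WT/Veh females 1F and 2F, Xist, the RNA of the inactive X chromosome, had 334 and 714 CPM, against 53.7 to 126 CPM in the 4 WT/D-45113 females and 61.3 and 65.7 CPM in the other WT/Veh females. The nuclear RNA Meg3, looked at after this was seen, had 463 and 735 CPM in the same 2 mice, the highest of the 16. Malat1, another nuclear RNA, was not set apart in them (313 and 398 CPM). The cause was not tested.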
